A study of Mus musculus with 20 samples.

Results

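Immediate early transcription factors were examined in pancreatic islets as a set of 10 genes out of the 26159 genes named on the array: Egr1, Nr4a1, Nr4a2, Nr4a3, Fos, Fosb, Jun, Junb, Ier2 and Npas4. They were chosen by name as known immediate early transcription factors, with earlier results of these data known, and a gene with several probes was read from the one that was brightest on average. Of the 10 genes, 9 lay above the limit on dim genes and were among the 18311 genes tested, and Npas4 lay below it. Islets came from male mice of strain B6.V-Lep ob/ob, in which leptin is not functional and obesity develops, and each group held 5 mice. Mice had 39 weeks of HFD followed by 2 days of CRD, 39 weeks of HFD alone, 18 weeks of HFD followed by 2 days of CRD, or 18 weeks of HFD alone. All 20 mice therefore shared the ob/ob mutation and the HFD period, no lean or HFD-free group is analysed here, and the labels do not spell out the diet abbreviations. Age and weeks on HFD carry the same number, so they cannot be told apart. Collagenase digestion and hand picking gave the islets, which were frozen, and RNA from each mouse was labelled with Cy3 and hybridised to 1 Agilent array. The islet hormone genes were present in every group, with group means of 17.9 for insulin (Ins2) on the log2 scale used below.

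Immediate early genes are switched on by preexisting factors without new protein synthesis, within minutes of a signal such as a hormone, a growth factor, calcium entry or cAMP, and their mRNAs are short-lived. Egr1 is a zinc finger factor, the NR4A receptors are orphan nuclear receptors, Fos and Jun proteins pair to form AP-1, Npas4 is induced by calcium entry, and Ier2 is a nuclear early-response protein. In beta cells, glucose, incretins and membrane depolarisation are known to induce several of them through the kinase ERK, the factor CREB bound to cAMP response elements, and serum response factor bound to CArG boxes.

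Promoter windows from RefSeq (build GRCm38.p6, 250 bases before to 50 after the annotated start) were found for 8 of the members. The core of the cAMP response element, searched as TGACG on both strands, stood in 7 of these 8 windows and in 20.8% of all 32851 windows of the same length. The exception was Jun. The full element TGACGTCA, which holds the core, stood in 0 of 8 windows and in 1.79% of all. The site bound by EGR proteins, searched as GCGNGGGCG, stood in 3 of 8 (Nr4a1, Nr4a2 and Fosb) and in 5.55% of all. The TATA box, searched as TATAAA, stood in 3 of 8 (Nr4a2, Fos and Junb) and in 13.6% of all. The AP-1 site TGANTCA and the CArG box each stood in 0 of 8, against 7.81% and 1.63% of all windows. A match describes letters in this window only. Averaged over both ages, Nr4a1, Nr4a2 and Fos differed between the diets (limma adjusted p under 0.05). By its brighter probe Nr4a3 did not, and by its dimmer probe, singled out after its values were seen, it did. Fosb and Junb also held a core and did not pass on average (limma adjusted p = 0.158 and 0.165). Neither did Npas4, which held cores too, in a fit of all genes (limma adjusted p = 0.727). Whether the core goes with a difference between the diets was not tested. Egr1 was not among the 8 members with a window. The NR4A and Fos promoters are shown, with capitals marking cores of cAMP response elements, EGR sites and TATA boxes on either strand. The windows are chr15:101266596-101266895 on the plus strand for Nr4a1, chr2:57123954-57124253 on the minus strand for Nr4a2, chr4:48045055-48045354 on the plus strand for Nr4a3 and chr12:85473640-85473939 on the plus strand for Fos.
Nr4a1: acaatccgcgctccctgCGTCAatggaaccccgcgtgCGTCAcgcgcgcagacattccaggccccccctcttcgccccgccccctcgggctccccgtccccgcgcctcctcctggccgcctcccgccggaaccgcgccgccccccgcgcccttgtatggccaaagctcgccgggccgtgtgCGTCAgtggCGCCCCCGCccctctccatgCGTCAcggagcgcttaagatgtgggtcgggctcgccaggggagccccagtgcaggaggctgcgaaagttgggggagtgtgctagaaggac
Nr4a2: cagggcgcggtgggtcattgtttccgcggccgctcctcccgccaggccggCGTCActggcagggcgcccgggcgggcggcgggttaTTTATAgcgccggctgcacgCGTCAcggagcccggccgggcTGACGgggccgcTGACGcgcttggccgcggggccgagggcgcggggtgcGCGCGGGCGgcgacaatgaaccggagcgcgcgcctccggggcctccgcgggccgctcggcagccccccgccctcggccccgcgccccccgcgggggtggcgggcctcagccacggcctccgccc
Nr4a3: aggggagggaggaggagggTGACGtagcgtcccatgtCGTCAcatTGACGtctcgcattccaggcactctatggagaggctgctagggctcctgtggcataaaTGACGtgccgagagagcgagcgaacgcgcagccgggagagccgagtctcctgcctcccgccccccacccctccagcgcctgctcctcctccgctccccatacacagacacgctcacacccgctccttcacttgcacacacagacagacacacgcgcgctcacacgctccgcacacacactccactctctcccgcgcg
Fos: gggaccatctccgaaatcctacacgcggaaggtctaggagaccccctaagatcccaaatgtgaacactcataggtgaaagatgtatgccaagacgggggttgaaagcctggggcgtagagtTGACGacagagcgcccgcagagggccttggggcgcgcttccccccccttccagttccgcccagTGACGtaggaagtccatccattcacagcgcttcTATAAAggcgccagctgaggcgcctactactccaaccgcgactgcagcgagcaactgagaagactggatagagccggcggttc
The 3 NR4A windows held 4 cores each. Counted from the annotated start, they began at -233, -213, -69 and -40 in Nr4a1, and at -231 to -147 in Nr4a3. Fos had cores at -129 and -66 and a TATA box at -33.

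Values are the authors' normalised intensities on the log2 scale, and all 20 columns held the same set of sorted values, with a table median of 5.19. The background level of the array is not known. As a guide, 1320 chemosensory receptor genes had a median log2 level of 4.45 and a 90th percentile of 7.76 over the same arrays. The levels of Fos, Junb, Ier2, Npas4 and the dimmer of 2 Nr4a3 probes lay under that 90th percentile in all 20 mice, and those of Egr1 and the brighter Nr4a3 probe in most. Arrays were also split into 3 array sets, A, B and C, that no label records. The sets came from clustering the arrays by their correlation on the chemosensory genes, with the number of sets fixed at 3. Arrays of 1 set correlated at 0.925 to 0.979 on those genes, and arrays of different sets at 0.848 to 0.917. Higher values within sets follow from how the sets were made. CRD mice had 4 arrays in set A and 1 in set C at 39 weeks, and 1 in set A and 4 in set B at 18 weeks. HFD mice had 3 in A, 1 in B and 1 in C at 39 weeks, and 4 in A and 1 in B at 18 weeks. At 18 weeks the sets thus lay almost along the diets, and after CRD they lay almost along the ages. A second fit with the sets as a block, called the blocked fit, is given where it changes a result. The tests used limma over all 20 arrays with Benjamini-Hochberg adjusted p-values over all 18311 genes, and a gene passed at an adjusted p under 0.05. Fold changes are CRD over HFD, or 39 over 18 weeks, on the log2 scale with the standard error (SE).

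Egr1 and Nr4a1 were the members with large differences between the diets, each at a different age. After CRD at 39 weeks, Egr1 fell in all 5 mice below every HFD mouse, by 2.58 on the log2 scale. After CRD at 18 weeks, Nr4a1 fell in the same way by 1.97. Of the 9 members tested, 1 passed the test at 39 weeks (Egr1), where 8.34% of all genes passed, and 1 passed at 18 weeks (Nr4a1), where 24.9% of all genes passed. The median fold change of the 9 members was -0.26 at 39 weeks and -0.30 at 18 weeks, against medians over all genes tested of 0.02 and 0.04. Averaged over both ages, 4 of 9 passed (Egr1, Nr4a1 and Fos lower, Nr4a2 higher), where 21.6% of all genes passed. The blocked fit called 2 of 9 at 39 weeks (Egr1 and Fos), where 15.3% of all genes passed, 2 of 9 at 18 weeks (Egr1 and Nr4a1), where 12.9% passed, and the same 4 on average, where 28.1% passed. A count of 1 in 9 is close to the background at 39 weeks and below it at 18 weeks. The 2 single-age comparisons share no mice, and the averaged one uses both.

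**Figure D1:**
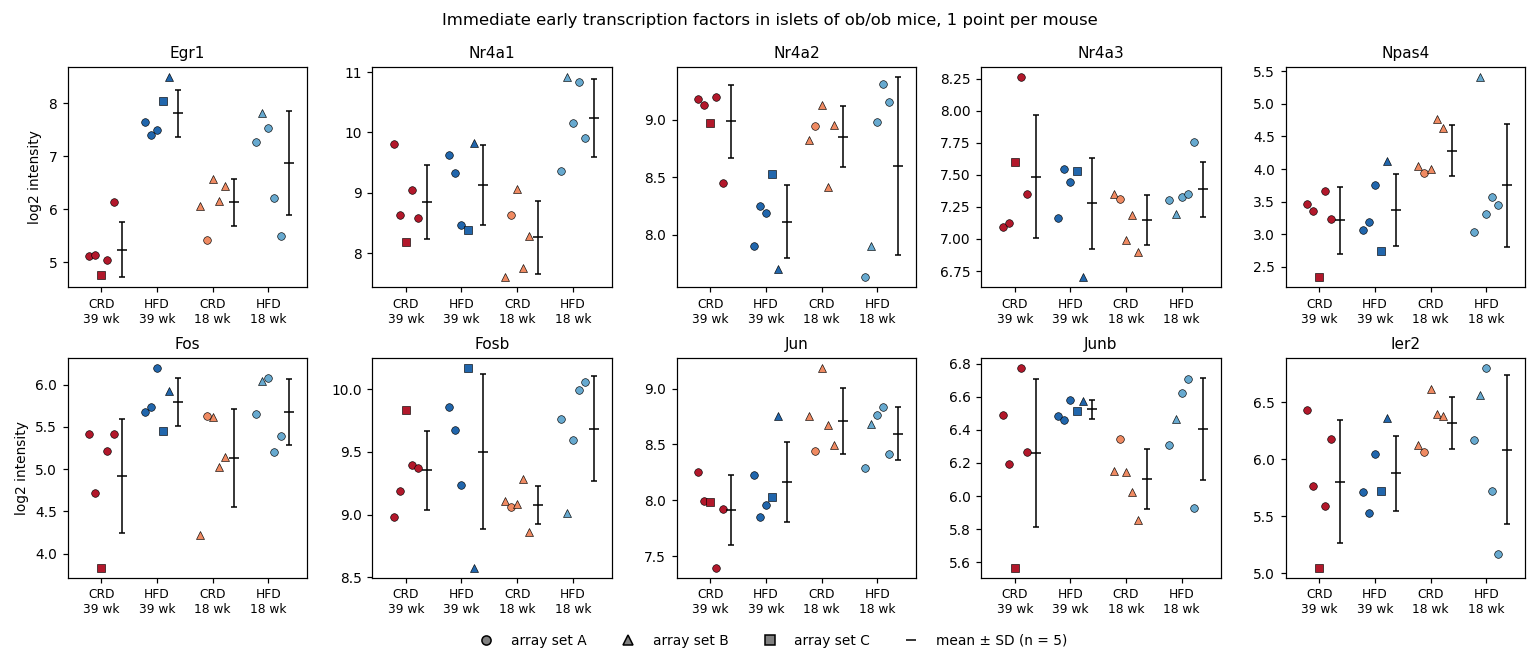
Log2 intensity of the 10 members in each mouse (1 point per mouse, 5 per group), with group means and SD as bars and the array set as the point shape; the y axis differs between panels. Egr1 is lowest after CRD at 39 weeks (4.76 to 6.13) and highest on HFD at 39 weeks (7.40 to 8.49), and Nr4a1 on HFD at 18 weeks (9.36 to 10.91) lies above every mouse of the CRD group of that age.

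Egr1 read 5.12, 5.13, 4.76, 5.04 and 6.13 in the mice given CRD at 39 weeks, against 7.64, 7.40, 7.50, 8.03 and 8.49 in the HFD mice of that age. The highest CRD mouse lay more than 1 log2 unit below the lowest HFD mouse. Groups without overlap occurred in 12.7% of all genes in this comparison and in 2 of the 9 members, Egr1 and Fos. The fold change was -2.58 ± 0.38 (SE, 95% interval -3.36 to -1.79, limma adjusted p = 0.000124), a level 5.96-fold lower after CRD. It was -2.16 among the 4 CRD and 3 HFD arrays of set A, and -3.27 between the single arrays of set C. In all 20 fits that left out 1 mouse it passed, at -2.80 to -2.41.

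At 18 weeks Egr1 read 6.06, 5.43, 6.57, 6.16 and 6.43 after CRD, against 7.27, 7.83, 7.53, 6.21 and 5.49 on HFD. The groups overlapped, because 2 of the HFD mice lay as low as the CRD mice. The fold change was -0.74 ± 0.38 (95% interval -1.52 to 0.05, limma adjusted p = 0.146). In the blocked fit it was -1.32 ± 0.37 and passed (limma adjusted p = 0.0204). Without the fifth HFD mouse of 18 weeks it also passed, at -1.08 (limma adjusted p = 0.0332). The fold change averaged over both ages was -1.66 ± 0.27 (limma adjusted p = 0.000101).

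Egr1 averaged 5.24 ± 0.52 after CRD and 7.81 ± 0.45 on HFD at 39 weeks, and 6.13 ± 0.44 after CRD and 6.87 ± 0.98 on HFD at 18 weeks (SD, n = 5 each). The groups of 39 weeks were thus the lowest and the highest, and those of 18 weeks lay between them. Neighbours in the order of means did not pass the test without the block. The CRD effect at 39 weeks minus that at 18 weeks was -1.84 ± 0.53 (unadjusted p = 0.00238, limma adjusted p = 0.222), which did not pass. The blocked fit gave a difference of -1.06 ± 0.51 (limma adjusted p = 1).

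Nr4a1, an NR4A receptor known to be induced by cAMP and calcium in many cell types, read 7.60, 8.63, 9.06, 7.75 and 8.28 after CRD at 18 weeks, against 9.36, 10.91, 10.16, 10.84 and 9.91 on HFD at 18 weeks. The groups did not overlap, as held for 9.6% of all genes in this comparison. The fold change was -1.97 ± 0.37 (95% interval -2.75 to -1.20, limma adjusted p = 0.000855), a level 3.93-fold lower after CRD. It was -2.19 ± 0.39 in the blocked fit (limma adjusted p = 0.000832), -1.44 within set A and -2.74 within set B. Each of these sets had 1 array of 1 diet, and with set A fitted alone the change did not pass (limma adjusted p = 0.291).

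At 39 weeks Nr4a1 read 9.81, 8.62, 8.18, 9.04 and 8.58 after CRD, against 9.62, 9.32, 8.47, 8.38 and 9.83 on HFD. These groups overlapped almost fully, with a fold change of -0.28 ± 0.37 (95% interval -1.06 to 0.50, limma adjusted p = 0.744). Nr4a1 averaged 8.85 ± 0.62 after CRD and 9.12 ± 0.67 on HFD at 39 weeks, and 8.26 ± 0.61 after CRD and 10.24 ± 0.65 on HFD at 18 weeks (SD, n = 5 each). The groups of 18 weeks were here the lowest and the highest. Neighbours in the order of means did not pass the test, and HFD mice at 39 against 18 weeks had a fold change of -1.11 ± 0.37 (unadjusted p = 0.00736, limma adjusted p = 0.324). The CRD effect at 39 weeks minus that at 18 weeks was 1.69 ± 0.53 (unadjusted p = 0.00433, limma adjusted p = 0.222), so the difference in response by age did not pass for Nr4a1 either. In that limma test 0 of the 18311 genes passed, and 4043 (22.1%) had an unadjusted p under 0.05. The difference passed for both genes without the second HFD mouse of 18 weeks, with limma adjusted p = 0.0429 for Egr1 (-2.08) and 0.0487 for Nr4a1 (1.53). In that fit 3876 genes passed.

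**Figure D2:**
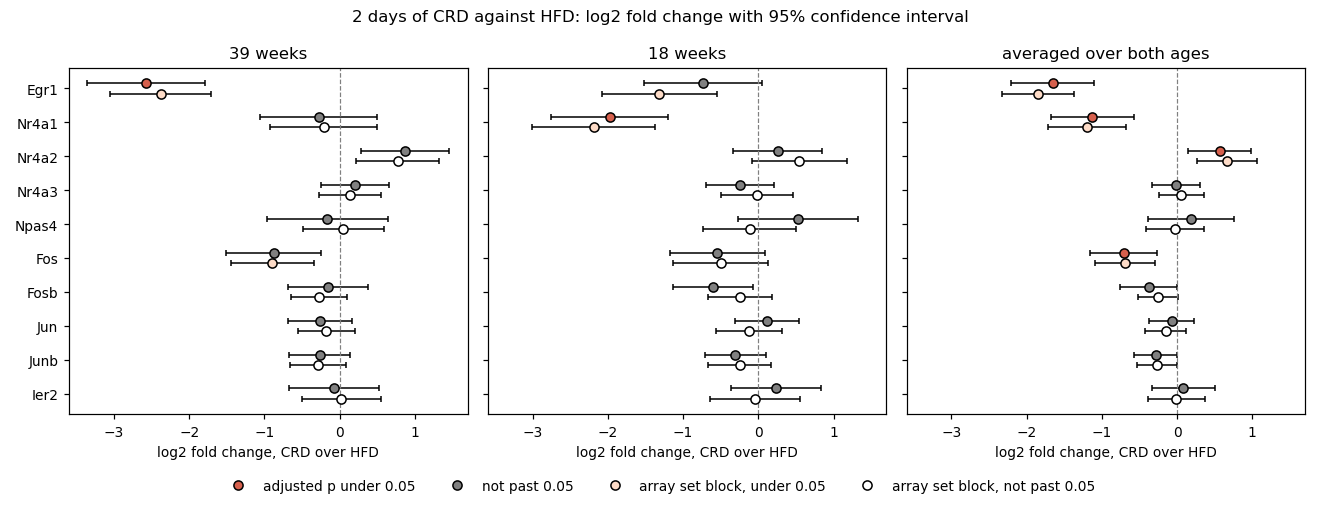
Log2 fold change, CRD over HFD, of each member at 39 weeks, at 18 weeks and averaged over both ages, with 95% intervals from limma, without and with the sets as a block. The interval of Egr1 lies below 0 at 39 weeks in both fits and at 18 weeks only with the block, and that of Nr4a1 lies below 0 at 18 weeks in both fits.

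Nr4a2, the NR4A receptor also known as Nurr1, went the other way from Nr4a1. It read 9.18, 9.13, 8.97, 9.20 and 8.44 after CRD at 39 weeks, against 7.90, 8.25, 8.19, 8.52 and 7.70 on HFD at 39 weeks. Only the lowest CRD mouse fell within the HFD range. At 18 weeks it read 8.82, 8.94, 9.12, 8.42 and 8.95 after CRD, against 7.63, 7.90, 8.98, 9.30 and 9.16 on HFD, where 2 HFD mice lay below every CRD mouse, 1 within the CRD range and 2 above every CRD mouse. The fold change was 0.87 ± 0.28 at 39 weeks (limma adjusted p = 0.0635) and 0.26 ± 0.28 at 18 weeks (limma adjusted p = 0.495), neither of which passed. The change at 39 weeks passed in 4 of the 20 fits that left out 1 mouse (without HFD mouse 1, 2 or 4 of 18 weeks, or without CRD mouse 5 of 39 weeks), with limma adjusted p = 0.033 to 0.0477 and fold changes of 0.87 to 1.01. Averaged over both ages it was 0.56 ± 0.20 and just passed (limma adjusted p = 0.0496). It was 0.66 ± 0.19 in the blocked fit (limma adjusted p = 0.0129). The averaged call was lost with no limit on dim genes (limma adjusted p = 0.066) and kept in 6 of the 20 fits that left out 1 mouse.

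Nr4a3, the third NR4A receptor, had 2 probes annotated to different RefSeq transcripts, and they disagreed. The brighter probe read 7.09, 7.12, 7.60, 8.26 and 7.35 after CRD at 39 weeks, against 7.16, 7.55, 7.44, 7.53 and 6.70 on HFD at 39 weeks. At 18 weeks it read 7.35, 7.31, 6.99, 7.19 and 6.90 after CRD, against 7.31, 7.19, 7.33, 7.35 and 7.76 on HFD. The groups overlapped at both ages, and the fold changes were 0.21 ± 0.22 at 39 weeks (95% interval -0.24 to 0.66, limma adjusted p = 0.664) and -0.24 ± 0.22 at 18 weeks (95% interval -0.69 to 0.21, limma adjusted p = 0.403).

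The dimmer Nr4a3 probe, singled out after its values were seen, read 5.36, 5.25, 5.32, 5.11 and 5.65 after CRD at 39 weeks, against 6.39, 6.14, 6.35, 6.14 and 6.71 on HFD at 39 weeks. At 18 weeks it read 5.44, 5.20, 5.46, 5.40 and 5.86 after CRD, against 6.07, 6.36, 6.19, 6.07 and 6.08 on HFD. Every CRD mouse lay below every HFD mouse of its age. Groups without overlap, in either direction, occurred in 12.7% of all genes at 39 weeks and in 9.6% at 18 weeks. All 20 values lay under the 90th percentile of the chemosensory genes. The fold change of this probe was -1.01 ± 0.16 at 39 weeks (limma adjusted p = 0.000306) and -0.68 ± 0.16 at 18 weeks (limma adjusted p = 0.00467). In the fit of the brightest probes, 8.34% of all genes passed at 39 weeks and 24.9% at 18 weeks. Within array sets it was -0.95 in A and -0.82 in C at 39 weeks, and -0.90 in A and -0.81 in B at 18 weeks. Which transcripts each probe detects in islets was not tested.

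**Figure D3:**
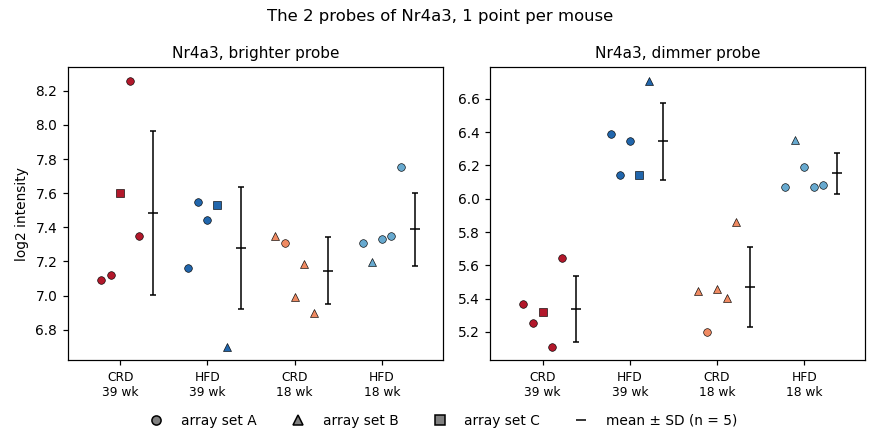
Log2 intensity of the brighter (left) and the dimmer (right) Nr4a3 probe in each mouse, with group means and SD as bars and the array set as the point shape. The dimmer probe reads 5.11 to 5.86 in the 10 CRD mice and 6.07 to 6.71 in the 10 HFD mice, and the brighter probe overlaps between the diets at both ages.

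Fos, the Fos family partner in AP-1 that is most often used as a marker of recent stimulation, read 5.42, 4.71, 3.83, 5.22 and 5.41 after CRD at 39 weeks, against 5.67, 5.73, 6.20, 5.45 and 5.92 on HFD at 39 weeks. The groups did not overlap, as for Egr1, but the highest CRD mouse (5.42) lay just under the lowest HFD mouse (5.45), and the lowest CRD value came from the array in set C. The fold change was -0.88 ± 0.30 (95% interval -1.51 to -0.24, limma adjusted p = 0.0835), which did not pass. The blocked fit gave -0.89 ± 0.26, which passed (limma adjusted p = 0.0254).

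At 18 weeks Fos read 4.22, 5.63, 5.62, 5.02 and 5.15 after CRD, against 5.65, 6.05, 6.08, 5.20 and 5.39 on HFD. The ranges overlapped, with a fold change of -0.55 ± 0.30 (95% interval -1.18 to 0.09, limma adjusted p = 0.179). Averaged over both ages Fos fell by 0.71 ± 0.21 (limma adjusted p = 0.0204), a level 1.64-fold lower after CRD, and it passed in all 20 fits that left out 1 mouse. In the 12 arrays of set A alone the averaged change was -0.31 and did not pass (limma adjusted p = 0.494).

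Fosb, another Fos family member, did not pass in any comparison over all 20 mice. It averaged 9.35 ± 0.32 after CRD and 9.50 ± 0.62 on HFD at 39 weeks, and 9.08 ± 0.15 after CRD and 9.68 ± 0.42 on HFD at 18 weeks (SD, n = 5 each). At 18 weeks the fold change was -0.60 ± 0.26 (95% interval -1.14 to -0.07, limma adjusted p = 0.0856), and 1 HFD mouse, the only one of its group in set B, read 9.01 and lay within the CRD range of 8.86 to 9.29. Without that mouse it was -0.77 and passed (limma adjusted p = 0.0186), in a fit where 8400 genes passed at 18 weeks. Without the fifth HFD mouse of 39 weeks it passed at -0.60 (limma adjusted p = 0.0436), in a fit where 5039 genes passed. The blocked fit gave -0.24 ± 0.21 (limma adjusted p = 0.561). The average over both ages was -0.38 ± 0.18 (limma adjusted p = 0.158), and -0.49 without that HFD mouse of 39 weeks, which passed (limma adjusted p = 0.0269).

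Jun, which pairs with Fos proteins, showed more difference by age than by diet. After CRD it read 8.25, 8.00, 7.98, 7.40 and 7.92 at 39 weeks, against 8.75, 8.44, 9.19, 8.67 and 8.50 at 18 weeks. Every mouse of 39 weeks lay below every mouse of 18 weeks. Groups without overlap, in either direction, occurred in 4.57% of all genes in this comparison and in 1 of the 9 members tested. The fold change, 39 over 18 weeks, was -0.80 ± 0.20 (unadjusted p = 0.000812, limma adjusted p = 0.1), against a median over all genes of -0.18, and did not pass. In the blocked fit it was -0.48 ± 0.23 (limma adjusted p = 1), against a median over all genes of 0.02. Without the second CRD mouse of 18 weeks, the only one of its group in set A, the change was -0.87 and passed (limma adjusted p = 0.0119), in a fit where 6466 genes passed. On HFD the fold change by age was -0.43 ± 0.20 (limma adjusted p = 0.749). Between the diets Jun had fold changes of -0.26 ± 0.20 at 39 weeks (95% interval -0.68 to 0.17) and 0.11 ± 0.20 at 18 weeks (95% interval -0.31 to 0.54), with limma adjusted p = 0.549 and 0.685.

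Junb, a Jun family member, averaged 6.26 ± 0.45 after CRD and 6.52 ± 0.06 on HFD at 39 weeks, and 6.10 ± 0.18 after CRD and 6.41 ± 0.31 on HFD at 18 weeks (SD, n = 5 each). The 5 HFD mice of 39 weeks lay between 6.46 and 6.58, while the CRD mice of that age spread over 5.57 to 6.78. The fold changes were -0.27 ± 0.20 (95% interval -0.67 to 0.14, limma adjusted p = 0.506) and -0.30 ± 0.20 (95% interval -0.71 to 0.10, limma adjusted p = 0.243).

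Ier2 averaged 5.80 ± 0.54 after CRD and 5.88 ± 0.33 on HFD at 39 weeks, and 6.32 ± 0.23 after CRD and 6.08 ± 0.66 on HFD at 18 weeks (SD, n = 5 each). Its fold changes were the closest to 0 among the members at 39 weeks, -0.07 ± 0.29 (95% interval -0.67 to 0.52), and 0.23 ± 0.29 at 18 weeks (95% interval -0.36 to 0.83), with limma adjusted p = 0.922 and 0.538. Its groups overlapped at both ages.

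Npas4, a factor induced by calcium entry in neurons and in beta cells, lay below the limit on dim genes, so its values come from a fit of all 26159 genes. It read 3.47, 3.36, 2.34, 3.67 and 3.23 after CRD at 39 weeks, against 3.06, 3.19, 3.76, 2.75 and 4.12 on HFD at 39 weeks. At 18 weeks it read 4.05, 3.94, 3.99, 4.78 and 4.64 after CRD, against 3.03, 5.40, 3.31, 3.57 and 3.45 on HFD. The fold changes between the diets were -0.16 ± 0.38 (limma adjusted p = 0.905) and 0.53 ± 0.38 (limma adjusted p = 0.326). After CRD, every mouse of 39 weeks lay below every mouse of 18 weeks. Groups without overlap, in either direction, occurred in 4.57% of the 18311 genes tested, which leave Npas4 out. The fold change of Npas4 by age after CRD was -1.07 ± 0.38 (limma adjusted p = 0.0999). That value was -0.05 ± 0.32 in the blocked fit (limma adjusted p = 1). The HFD mouse of 18 weeks at 5.40 and the HFD mouse of 39 weeks at 4.12 were the arrays of their groups in set B.

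Across ages, 0 of the 9 members passed on HFD, where 0.0928% of all genes passed (0.912% in the blocked fit, again with 0 members), and 0 of 9 passed after CRD, where 0.0273% passed. An unadjusted p under 0.05 was found for 3 of 9 members on HFD (Egr1, Nr4a1 and Jun), against 6.6% of all genes, and for 2 of 9 after CRD (Egr1 and Jun), against 35.6% of all genes. In the blocked fit these were the same 3 on HFD, against 11.3% of all genes, and 1 after CRD (Nr4a1, unadjusted p = 0.0276), against 1.67% of all genes. These comparisons share their mice with the diet comparisons of the same groups. Egr1 had a fold change of 0.95 ± 0.38 on HFD (limma adjusted p = 0.542) and -0.89 ± 0.38 after CRD (limma adjusted p = 0.116), 39 over 18 weeks. Without the second CRD mouse of 18 weeks the change of Egr1 after CRD was -1.07 and passed (limma adjusted p = 0.0408), and in the blocked fit of all mice it was -0.11 ± 0.41 (limma adjusted p = 1).

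Members were also compared over the 20 mice after each group's mean was subtracted, so that only differences among mice of a group remained. Egr1 and Ier2 varied together, with Pearson's r = 0.81 and Spearman's rho = 0.81 (two-sided permutation within groups, p = 0.00039 for each, adjusted p = 0.014 over 36 pairs). Without the 2 mice farthest from the median of Egr1, r was 0.72, and within array set A, over 12 mice, it was 0.82. Fos and Ier2 had r = 0.68 and rho = 0.64 (permutation p = 0.00138 and 0.00528, adjusted p = 0.0166 and 0.0317), and r = 0.64 without the 2 farthest mice. Fosb went against Ier2, with r = -0.69 and rho = -0.72 (permutation p = 0.00094 and 0.00204, adjusted p = 0.0166 and 0.0188). Jun went against the brighter probe of Nr4a3, with r = -0.74 and rho = -0.65 (permutation p = 0.00291 and 0.00495, adjusted p = 0.0262 and 0.0317). Fos also went against Fosb, with r = -0.53 and rho = -0.66 (permutation p = 0.00399 and 0.00113, adjusted p = 0.0287 and 0.0188). These 5 pairs, 2 positive and 3 negative, were those past 0.05 for r among the 36, and all 5 were also past it for rho. By rho 3 more pairs were past 0.05 (Nr4a3 with Ier2, rho = -0.67, Nr4a3 with Egr1, rho = -0.59, and Nr4a3 with Fosb, rho = 0.63, adjusted p = 0.0188, 0.0363 and 0.0363). The share of all gene pairs past the same test, in either direction, was not determined, so these pairs may not be particular to the members. The members did not form 1 block. Of the 36 pairs 5 (13.9%) had r over 0.5, against 25.2% of the pairs of all genes tested on these arrays. The array sets were defined by likeness on the chemosensory genes, and the shuffles did not take sets into account. With set means also subtracted 4 member pairs had r over 0.5, and r was 0.82 for Egr1 with Ier2, 0.70 for Fos with Ier2, -0.51 for Fosb with Ier2, -0.68 for Jun with Nr4a3 and -0.50 for Fos with Fosb.

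**Figure D4:**
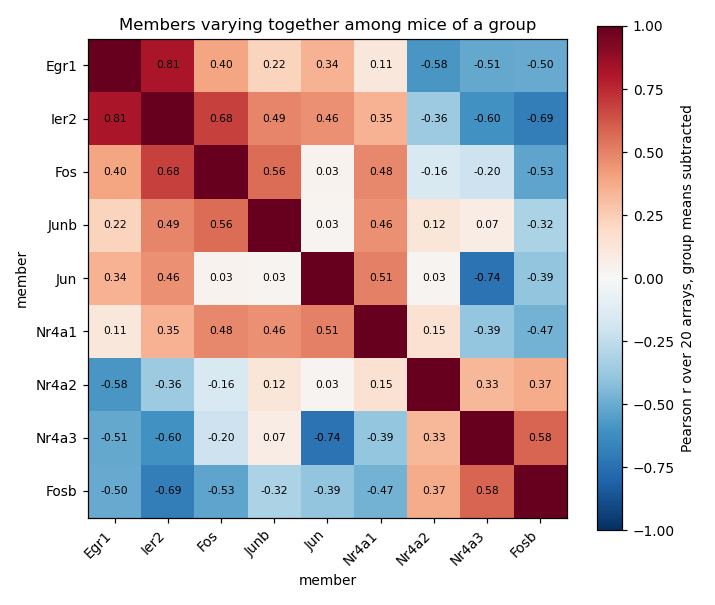
Pearson correlation of each pair of the 9 members tested over 20 mice, after subtracting group means; red is positive and blue negative. Egr1, Ier2 and Fos sit in a positive corner (0.81 for Egr1 with Ier2, 0.68 for Fos with Ier2), and Fosb and Nr4a3 are negative with Ier2 (-0.69 and -0.60).

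The genes outside the set whose levels were most like the mean of the members, over the 20 mice after subtracting group means, were Pigg (r = 0.72), Inhba (r = 0.69), Zfp992 (r = 0.69), Socs3 (r = 0.67) and Gabbr2 (r = 0.67). Inhba encodes a subunit of activin and inhibin, Socs3 is a feedback inhibitor of cytokine signalling, and Gabbr2 is a subunit of the GABA-B receptor. The points share arrays and array sets, and the values are a description.

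Genes that act beside the members were read from 4 lists chosen with earlier results known, plus heat shock genes as a list of stress during islet isolation. Of all genes tested, 3.5% rose and 4.84% fell at 39 weeks, and 17% rose and 7.89% fell at 18 weeks. In the blocked fit 7.49% rose and 7.79% fell at 39 weeks, and 6.89% rose and 5.97% fell at 18 weeks. These shares stand beside the counts of every list and of the cell markers below. Of 15 other early-response transcription factors tested, 0 rose and 1 fell at 39 weeks, with a median of -0.16. At 18 weeks 2 rose and 0 fell, with a median of 0.08. Crem, which encodes repressors and activators that bind cAMP response elements, averaged 8.57 ± 0.42 after CRD and 6.75 ± 0.89 on HFD at 18 weeks (SD, n = 5 each), a rise of 1.82 ± 0.33 (limma adjusted p = 0.000605). At 39 weeks Crem averaged 7.66 ± 0.37 after CRD and 6.65 ± 0.36 on HFD, with a fold change of 1.01 ± 0.33 that did not pass (limma adjusted p = 0.0666), and 1.17 ± 0.28 in the blocked fit, which passed (limma adjusted p = 0.0076). Klf6, a Krüppel-like factor, fell at 39 weeks by 1.06 ± 0.32 (limma adjusted p = 0.0426). Klf10, also of that family, rose at 18 weeks by 1.05 ± 0.34 (limma adjusted p = 0.0306), a call that was lost in the blocked fit (0.41, limma adjusted p = 0.447). As the average of both ages, Klf2 fell by 0.46 ± 0.14 (limma adjusted p = 0.0248). Egr2 and Atf3 lay below the limit on dim genes.

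Among 21 early-response genes that are not transcription factors, 2 rose and 3 fell at 39 weeks, and 1 rose and 2 fell at 18 weeks, with medians of -0.37 and -0.07. In the blocked fit 5 fell at 39 weeks (Rgs2, Trib1, Btg1, Dusp4 and Per1) and 5 at 18 weeks (Rgs2, Trib1, Dusp4, Per1 and Gadd45g). Rgs2, which limits signalling by G proteins of the Gq class, averaged 10.91 ± 0.50 after CRD and 12.86 ± 0.83 on HFD at 39 weeks (SD, n = 5 each), a fall of 1.95 ± 0.41 (limma adjusted p = 0.00442). Trib1, a pseudokinase, fell by 1.29 ± 0.27 at 39 weeks and by 0.90 ± 0.27 at 18 weeks (limma adjusted p = 0.00387 and 0.0202). Btg1, an antiproliferative protein, fell by 1.52 ± 0.43 at 39 weeks (limma adjusted p = 0.0303). Sik1, a kinase that restrains CREB coactivators and was named after its values were seen, rose by 0.95 ± 0.25 at 39 weeks (limma adjusted p = 0.0188). The ERK phosphatases Dusp6 and Dusp4 went opposite ways. Dusp6 rose by 1.02 ± 0.23 at 39 weeks and by 1.41 ± 0.23 at 18 weeks (limma adjusted p = 0.00726 and 0.000217), and Dusp4 fell by 1.74 ± 0.35 at 18 weeks (limma adjusted p = 0.00156).

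Of 21 factors and kinases upstream of the members, 0 rose and 3 fell at 39 weeks, 0 passed at 18 weeks (6 at an unadjusted p under 0.05, against 40.4% of all genes), and the medians were -0.50 and 0.01. In the blocked fit 5 fell at 39 weeks (also Crtc3 and Mrtfb) and 1 fell at 18 weeks (Crebbp). Crebbp, a coactivator of CREB, averaged 7.56 ± 0.22 after CRD and 8.62 ± 0.49 on HFD at 39 weeks (SD, n = 5 each), a fall of 1.06 ± 0.27 (limma adjusted p = 0.016). At 18 weeks its fold change was -0.64 ± 0.27 (limma adjusted p = 0.0794), and -1.09 ± 0.24 in the blocked fit, which passed (limma adjusted p = 0.00422). Elk3, which joins serum response factor on DNA, fell by 0.69 ± 0.21, and Crtc1, a CREB coactivator, by 0.52 ± 0.16 (limma adjusted p = 0.0394 and 0.0452). Of 6 corepressors and feedback inhibitors, such as the Sprouty proteins, 0 passed at either age by limma, with 0 at 39 weeks and 2 at 18 weeks at an unadjusted p under 0.05 (0 at both ages in the blocked fit), against 20.5% and 40.4% of all genes. The smallest p among them was that of Spry2 at 18 weeks, with a fold change of -1.06 ± 0.43 (limma adjusted p = 0.0736), which was -0.12 in the blocked fit. Of 10 heat shock genes, 0 passed at 39 weeks, with 0 also at an unadjusted p under 0.05 (1 in the blocked fit, against 27.1% of all genes). At 18 weeks 3 rose (Hsph1, Hspa1a and Hspe1), where 17% of all genes rose. The rise of Hsph1 was 1.31 ± 0.37 (limma adjusted p = 0.0162). Averaged over both ages, 2 of the 10 rose (Hsph1 and Hspe1), where 12.6% of all genes rose. In the blocked fit 1 rose on average (Hsph1), where 13.5% of all genes rose. The averaged rise of Hsph1 was 0.93 ± 0.27 (limma adjusted p = 0.0145), and 0.72 ± 0.22 in the blocked fit (limma adjusted p = 0.0171). Hspa1a and Hspe1 were named after their values were seen, as were Per1, Gadd45g, Crtc3, Mrtfb and the cell markers below. None of the 10 passed at 18 weeks in the blocked fit, with 0 also at an unadjusted p under 0.05. In the age comparisons and in the difference of the CRD effects, 0 genes of these lists passed by limma. In the order given, the lists held 15, 21, 21, 6 and 10 genes tested. Of these, 0, 1, 2, 0 and 0 had an unadjusted p under 0.05 by age on HFD, against 6.6% of all genes. By age after CRD these were 3, 9, 6, 3 and 7, against 35.6%, and in the difference 2, 4, 8, 1 and 2, against 22.1%. In the blocked fit they were 2, 1, 5, 0 and 0 on HFD, against 11.3% of all genes. After CRD they were then 0, 1, 0, 0 and 1, against 1.67%, and in the difference 0, 1, 1, 0 and 0, against 1.79%.

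**Figure D5:**
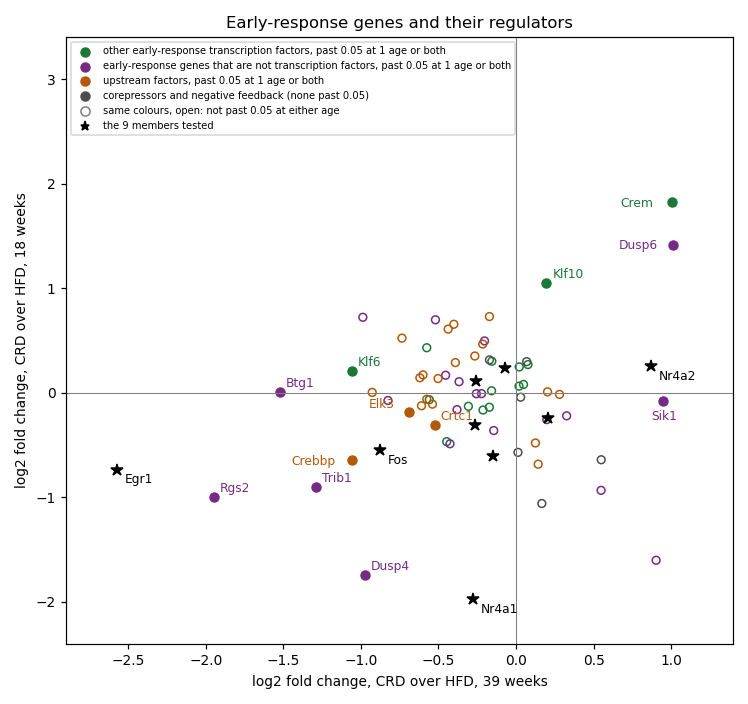
Log2 fold change, CRD over HFD, at 39 weeks (x axis) and at 18 weeks (y axis) of the members (stars) and of the genes of 4 lists around them; filled points passed an adjusted p of 0.05 at 1 age or both, open points did not. Dusp6 (1.02 and 1.41) and Crem (1.01 and 1.82) lie at the upper right, while Egr1 (-2.58 and -0.74), Rgs2 and Trib1 lie at the lower left.

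Markers of other cells were read beside these results, since in bulk islet RNA fewer cells of a type and less RNA per cell cannot be told apart. No marker was at 0 on any array, but this does not show that each cell type was present. Adipoq, for example, read as low as 0.56 on the log2 scale, under the chemosensory median of 4.45. The summed intensity of 10 macrophage markers was 3613 to 4536 after CRD against 5610 to 8712 on HFD at 39 weeks. At 18 weeks it was 3784 to 6643 after CRD against 4871 to 9842 on HFD. Of the 8 macrophage markers tested, 1 fell at 39 weeks (C1qa), where 4.84% of all genes fell. At 18 weeks 2 rose (C1qc and Cd68), where 17% of all genes rose. In the blocked fit C1qa fell at both ages and 0 rose. For 9 stellate and fibroblast markers the sum was 1262 to 1906 after CRD against 2020 to 3523 on HFD at 39 weeks, and 2 of 6 tested fell (Dcn and Rgs5). At 18 weeks it was 2029 to 3767 after CRD against 2502 to 4559 on HFD, where Rgs5 fell and Col1a1 rose, the rise not passing in the blocked fit. For 8 endothelial markers it was 6342 to 9272 after CRD against 9022 to 13195 on HFD at 39 weeks, where 1 of 8 fell (Emcn), and 7376 to 9829 after CRD against 8486 to 14038 on HFD at 18 weeks, where Cdh5 rose, again not in the blocked fit. These sums moved in the direction of Egr1 at 39 weeks, but each is set mostly by its brightest markers. The median fold changes of the markers tested at 39 weeks were -0.28 (macrophage), -0.54 (stellate and fibroblast) and -0.16 (endothelial). In each list not every marker averaged lower after CRD (Adgre1, Col1a1 and Pecam1 averaged higher). The part of these cells in the fall of Egr1 was not tested. For 11 acinar markers the sum was 7388 to 44421 after CRD against 42795 to 75777 on HFD at 39 weeks. Of the 10 tested, 1 rose and 1 fell there, and 9 had an unadjusted p under 0.05 by limma. Their median fold change was -2.36 (-2.23 in the blocked fit), also in the direction of Egr1. At 18 weeks the sum was 6329 to 48722 after CRD against 919 to 42989 on HFD, and 9 of the 10 rose (1 in the blocked fit). By age on HFD 7 of the 10 rose (9 in the blocked fit), where 0.071% of all genes rose (0.164% in the blocked fit). Of 8 beta cell markers, 3 fell at 39 weeks (Slc30a8, Ucn3 and Nkx6-1) and 6 at 18 weeks (4 in the blocked fit). Ins2 and Iapp averaged higher after CRD at both ages (Iapp 17.39 against 17.18 at 39 weeks, and 17.36 against 17.06 at 18 weeks). The sum of the 8 was 436438 to 444718 after CRD against 403411 to 447052 on HFD at 39 weeks. At 18 weeks it was 424667 to 439437 after CRD against 360844 to 440449 on HFD. The part of any of these shifts in the changes of the members was not tested.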

How the data were processed

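RNA of 20 islet samples was measured on 1-colour Agilent arrays. The deposited table holds 1 intensity for each of 59448 probes on each array. The submitters' processing notes name Agilent Feature Extraction 11. Sorting gave the same values in all 20 columns, which quantile normalization by the authors produces. Details of background correction were not given in the sources used here, and the number of arrays limits the precision.

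Intensities were used as log2. A platform table gave 1 symbol to 30010 probes and none to 29438, and all 30010 identifiers matched RefSeq (GRCm38.p6, names and promoters). Of the genes, 3324 had several probes, and the brightest on average was used. The lowest 30% of genes, under a mean log2 of 4.83, were left out. Package limma 3.58.1 (R 4.3.3) fitted 4 groups without a block, and the fit was tested on simulated data. The labels do not say that equal replicate numbers pair mice, and of 30 same-numbered pairs 10 had residual correlations over 0.1 (-0.85 to 0.86), so the numbers were not taken as pairs. The labels give 5 mice a group, 1 array each.

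Alternatives were no limit on dim genes, an offset of 16 before the log, the mean of a gene's probes, array set or replicate number as a block, array set A alone and leaving out each mouse. After seeing the data, the other Nr4a3 probe and the array set block without the limit were added. Named genes were all members, the 4 most changed genes past the threshold per list and diet comparison (2 of smallest p where none passed), and the 5 genes most like the members' mean. The members and lists were chosen with earlier results of these data known. Member pairs were shuffled within groups 100000 times.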

Additional observations from a re-analysis of the deposited data

Results flagged for a closer look

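In 3 of 44 groups of 5 mice, 1 mouse lay far from the others by Dixon's test, where chance alone gives about 1 in 20. Egr1 read 6.13 in the fifth CRD mouse of 39 weeks, against 4.76 to 5.13 in the other mice of that group, which is still below every HFD mouse of 39 weeks. Nr4a3 read 7.76 with its brighter probe in the fifth HFD mouse of 18 weeks, against 7.19 to 7.35 in the others. Npas4 read 5.40 in the second HFD mouse of 18 weeks, the array of its group in set B, against 3.03 to 3.57 in the others.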

How the results depend on the processing

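Over 1422 fold changes of members under alternatives, 1380 stayed on their side of the threshold, 20 lost a call, 20 gained 1 and 2 turned sign with a call, both of Nr4a3 at 39 weeks with its other probe (-1.01, and -0.94 with array sets blocked). Of 1244 called in neither fit, 51 had another sign. At 39 weeks the count of members called was 1, against 2 with array sets blocked, 2 with the other Nr4a3 probe, 3 with both, and 1 to 2 without each mouse in turn. At 18 weeks it was 1, against 2 with the mean of all probes, 2 with array sets blocked, 2 with the other Nr4a3 probe, 3 with both, 0 in array set A alone, where CRD is 1 array assumed to vary like the other groups, and 1 to 2 without each mouse in turn. Averaged over both ages it was 4, against 1 in set A alone and 5 with the mean of all probes. By age after CRD and in the difference of the CRD effects it was 0, and 0 to 2 without each mouse in turn. Taking the replicate number as a block, without evidence that it pairs mice, gave 1 member at 39 weeks, 1 at 18 weeks and 3 averaged over both ages, where Nr4a2 was lost (adjusted p = 0.0747). Blocking array sets gave 2799 genes called at 39 weeks, against 1528 without, and 2355 at 18 weeks, against 4565 without, of which 1262 with and 3120 without the block were higher after CRD. Without the second HFD mouse of 18 weeks 8400 genes were called at 18 weeks. By age on HFD, 17 genes were called and 167 with that block, and 0 of the members in either. The cause of these shifts was not tested. Signal over background is unknown, which limits the dimmer probes most, those of Egr1, Fos, Junb, Ier2 and Npas4 and the dimmer probe of Nr4a3.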
